A study of Mus musculus with 72 samples.

Results

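A total of 73 nuclear genes that encode subunits of the oxidative phosphorylation complexes were followed across the mouse interfollicular epidermis, out of 46078 genes in the count tables. They were taken by symbol: protein-coding genes of the Nduf, Sdh, Uqcr, Cyc1, Cox4 to Cox8 and Atp5 families, without testis forms and names ending in l or l2, with a mean of at least 1 CPM (counts scaled to library size) over 72 libraries. Of these, 35 belonged to complex I, 4 to complex II, 9 to complex III, 10 to complex IV and 15 to complex V. Ndufa4 was counted with complex I by its symbol, although its protein is known as a subunit of complex IV. Just inside the limit lay Uqcrb with a mean of 1.87 CPM and Uqcr11 with 2.61 CPM. Left out below it were Ndufb4 with 0.454 CPM, Ndufs5 with 0.186 CPM and the tissue-restricted forms Cox7a1, Cox4i2, Cox8b and Cox6a2, all 4 at or below 0.169 CPM.

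The RNA came from back skin of C57BL/6 females aged 8 weeks, kept in 12 h of light and 12 h of darkness, and the epidermis had been lifted off the dermis with the enzyme dispase. RE mice (Bmal1-stopFL/K14-Cre) carry a stop cassette that silences Bmal1, a core transcription factor of the circadian clock, together with K14-Cre. This Cre, driven by the keratin 14 promoter, gives Bmal1 back to stratified epithelia, not to the interfollicular epidermis alone. KO mice (Bmal1-stopFL) carry the cassette without Cre in every tissue, and WT mice carry K14-Cre alone. There were 4 mice for each of 6 time points of the day, hence 18 groups of 4 libraries, with 24 libraries per genotype. The design text asks what the epidermal daily transcriptome looks like with and without clocks outside the epidermis.

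Complexes I to IV form the respiratory chain of the inner mitochondrial membrane. Complex I takes electrons from NADH and complex II takes them from succinate, complex III passes them to cytochrome c, and complex IV passes them to oxygen. Complexes I, III and IV pump protons, and complex V, the ATP synthase, uses the proton gradient to make ATP. All subunits of complex II and most subunits of the others are encoded in the nucleus, while a few subunits of complexes I, III, IV and V are encoded in mitochondrial DNA. Keratinocytes of the skin are known to use both glycolysis and oxidative phosphorylation.

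Reads counted in genes numbered 29551992 to 49461975 per library. Arntl, the gene of Bmal1, lay between 30.7 and 112 CPM in RE (median 70.4), between 21.0 and 34.8 CPM in KO (median 31.7) and between 22.9 and 156 CPM in WT (median 77.2). The 12 keratinocyte markers had means of at least 1 CPM, while 11 of 14 skeletal muscle, 6 of 7 fat cell and 5 of 6 endothelial and blood markers lay under 1 CPM, and no marker was at 0 in all libraries. Markers of hair follicle, sebaceous gland and immune cells were detected (2 of 12, 0 of 8 and 0 of 8 under 1 CPM). So were those of melanocytes and fibroblasts (3 of 8 and 2 of 6 under 1 CPM). The summed fibroblast markers had a median of 10.4 CPM over all libraries and reached 145 CPM in RE. The mitochondrially encoded genes mt-Co1 and mt-Nd1 split the libraries into 2 sets by the log2 ratio of their counts. The second set held WT time points 5 and 6 and RE and KO time points 4 to 6 (32 libraries, ratio -6.02 to -5.09), and the first set held the other 40 libraries (-3.75 to -3.02). The sets are named for this ratio only, since the labels give no batch. Genotypes were therefore compared over time points 1 to 3 and 5 to 6, where all 3 lie in the same set. Earlier work on these data had put 5 libraries in doubt: RE time point 3 replicate 2, KO time point 3 replicate 1 and WT time point 3 replicate 2, whose genotype-dependent genes go against their labels, and RE time point 5 replicate 3 and WT time point 5 replicate 4. The last pair had 343 CPM (RE) and 274 CPM (WT) of the keratinocyte gene Krt14, against at least 2514 CPM elsewhere. In whole tissue, fewer cells of a type and less RNA per cell cannot be told apart.

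The subunit genes were abundant and differed widely from each other in counted level. Per kilobase of the representative transcript of GENCODE M21, the lowest member was Uqcrb at 3.49 CPM per kb, the median was 40.8 CPM per kb and the highest was Atp5b, the catalytic beta subunit of ATP synthase, at 386 CPM per kb. Next came Cox4i1, a nuclear subunit that stands against the catalytic core of complex IV, at 251 CPM per kb and Atp5a1, the alpha subunit that forms the ATP synthase head with Atp5b, at 245 CPM per kb. Atp5g3, one of the genes for the membrane ring of ATP synthase, stood at 173 CPM per kb and Uqcrc1, a core protein of complex III, at 125 CPM per kb. The other genes for the same ring protein, Atp5g2 and Atp5g1, stood at 110 and 11.1 CPM per kb. Among the core subunits of complex I, Ndufv1 had 45.2 CPM per kb and Ndufs1, which carries iron-sulfur clusters, had 37.3 CPM per kb, while Ndufs3 had 6.01 CPM per kb. In complex II, the flavoprotein Sdha had 48.7 CPM per kb, the membrane anchor Sdhd 40.8, the iron-sulfur protein Sdhb 39.2 and the membrane anchor Sdhc 20.7 CPM per kb. Values per kb lean on the annotated length, which reaches 4715 bases for Atp5g1. They also leave out reads counted on near-identical copies of a gene elsewhere in the genome. Of the reads on gene and copies together, Uqcrb held 3.12% and Ndufs3 13.5%, so their low values are uncertain as measures of their mRNA.

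**Figure D1:**
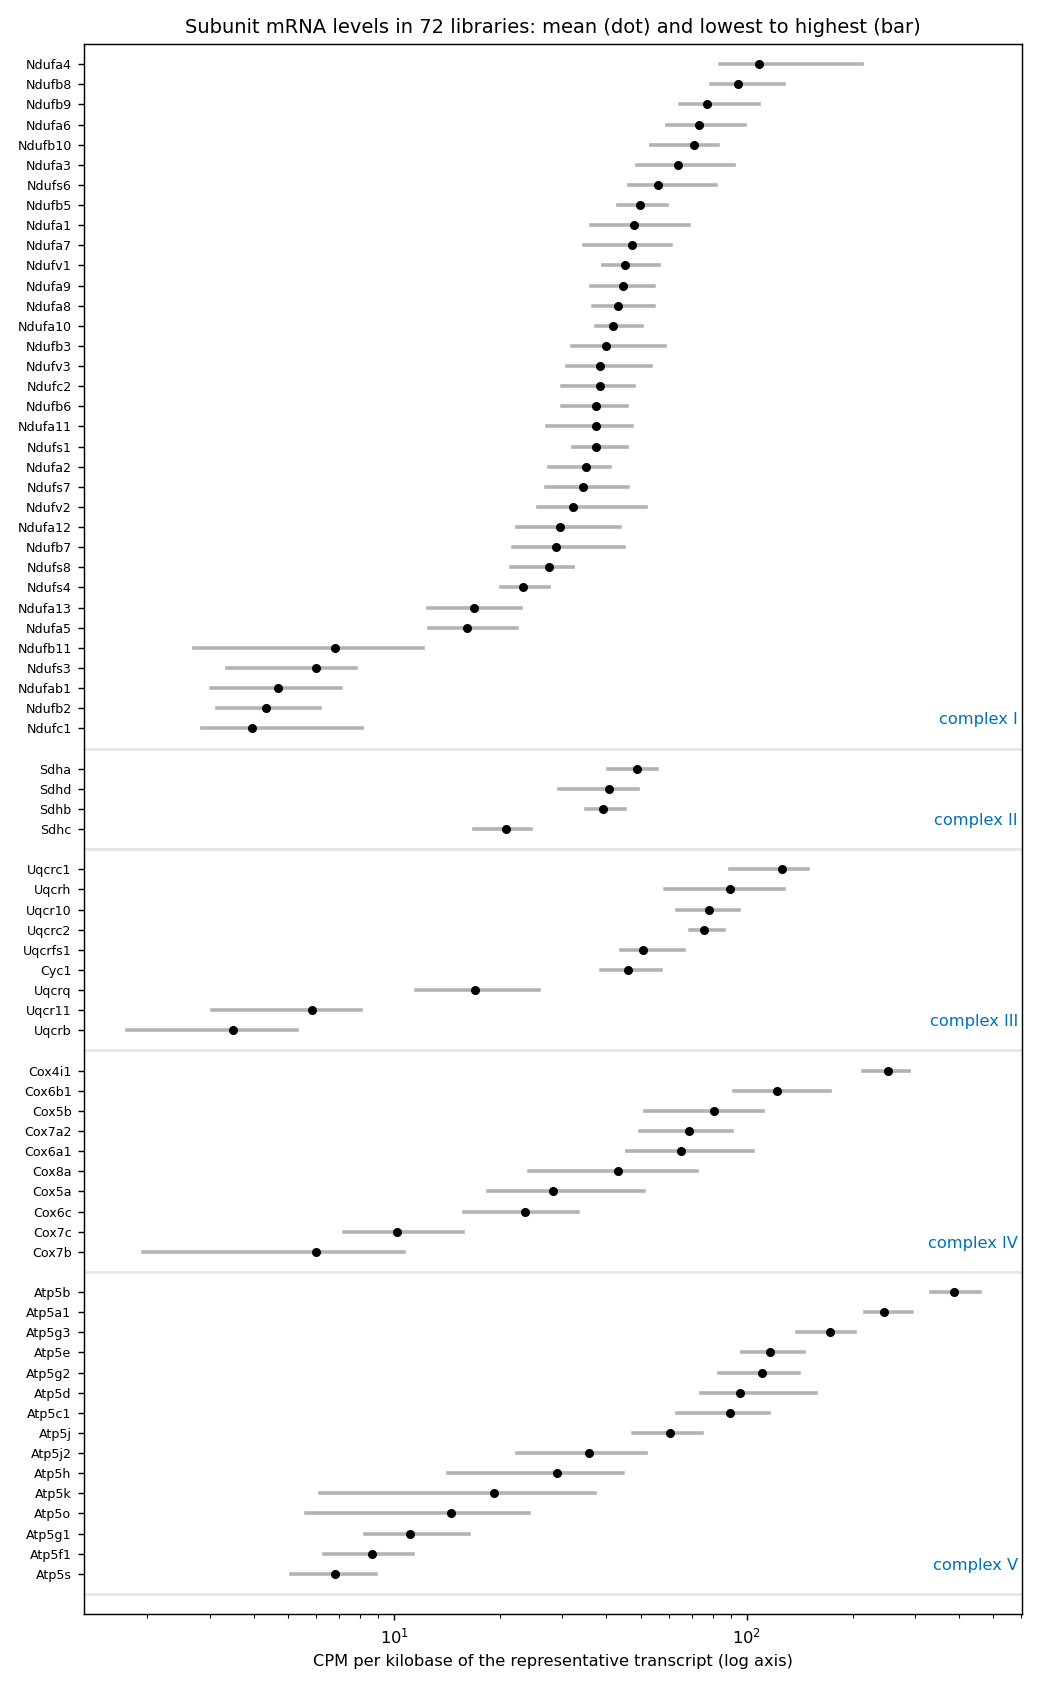
Mean level of 72 of the 73 subunit genes in CPM per kilobase of its representative transcript (log axis), by complex, with dots for means over 72 libraries and bars from the lowest to the highest library. Atp5b stands highest at 386 CPM per kb and Uqcrb lowest at 3.49 CPM per kb, with reads on near-identical copies of a gene left out.

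The widely expressed forms of complex IV were the ones present. Cox6a1 had a mean of 37.1 CPM, Cox7a2 45.3 CPM and Cox8a 23.7 CPM, while their heart and muscle counterparts Cox6a2, Cox7a1 and Cox8b had 0.00906, 0.169 and 0.0228 CPM. Cox4i1 had 192 CPM, and its lung-enriched counterpart Cox4i2 had 0.0447 CPM. Levels were also steady among mice of 1 group. The coefficient of variation within groups had a median of 9.55% over the 73 genes and reached 19.0% for Uqcr11.

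Summed over all 73 genes, the level was 4841 ± 280 CPM in RE, 4891 ± 222 CPM in KO and 4742 ± 199 CPM in WT (SD, n = 24 each). The sums by genotype include time point 4, where WT lies in the first library set and RE and KO in the second. By set, all 73 genes summed to 4734 ± 237 CPM in the second (n = 32) and 4897 ± 221 CPM in the first (n = 40). Complex V held the largest share of that sum, with 2035 ± 124 CPM in RE, 2071 ± 99.7 CPM in KO and 2002 ± 96.0 CPM in WT. Complex I summed to 1410 ± 105 CPM in RE, 1403 ± 64.0 CPM in KO and 1364 ± 75.6 CPM in WT. Both highest complex I sums, 1769 CPM and 1607 CPM, came from the 2 libraries with little Krt14, RE time point 5 replicate 3 and WT time point 5 replicate 4. Complex IV summed to 460 ± 28.1 CPM in the second set (n = 32) and 514 ± 32.0 CPM in the first (SD, n = 40).

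**Figure D2:**
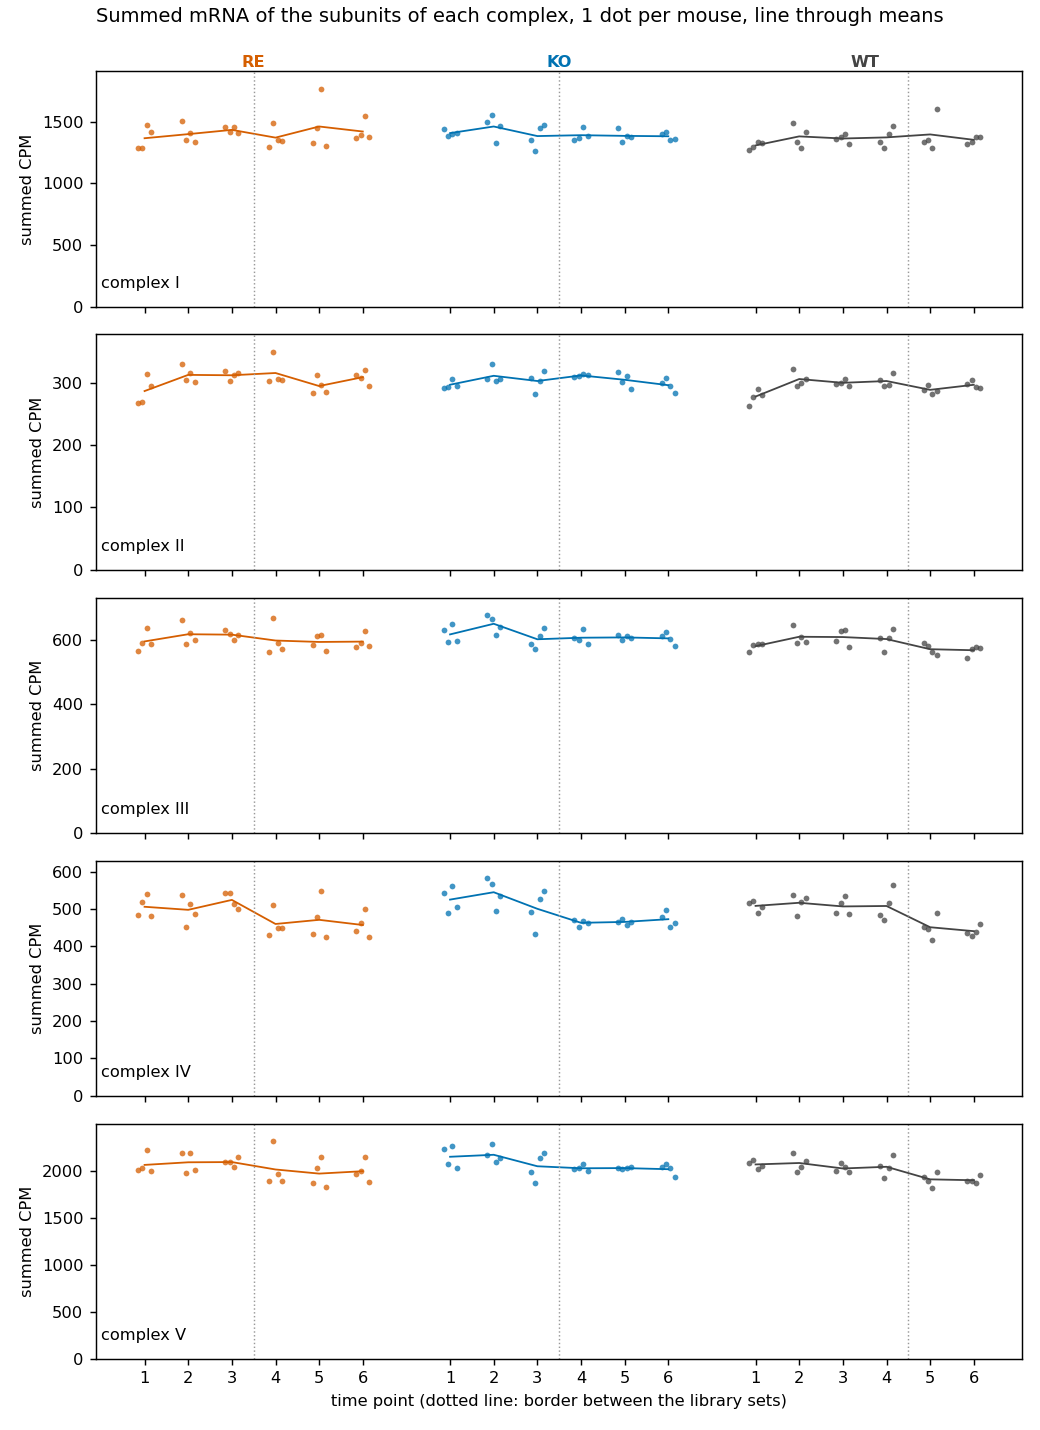
Summed CPM of the subunit genes of each complex at each time point in RE, KO and WT, with 1 dot per mouse, lines through group means and a dotted line where a genotype passes from the first to the second library set. Complex I sums lie between 1262 and 1769 CPM, and complex IV is lower to the right of the dotted line in each genotype.

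No subunit gene passed the test between RE, with Bmal1 restored, and KO. Between RE and KO over time points 1 to 3 and 5 to 6, 0 of 73 genes passed the edgeR quasi-likelihood test with Benjamini-Hochberg adjustment, where 9.63% of all 18515 genes tested did. At an unadjusted p under 0.05 there were 2 genes, Cox4i1 and Atp5a1, and DESeq2 called 0. The 73 differences had 95% intervals that reached at most from 0.819-fold to 1.16-fold. Cox4i1 ranged from 164 to 212 CPM in RE (median 190 CPM) and from 183 to 217 CPM in KO (median 196 CPM, n = 20 each), and the ranges overlapped widely. Its log2 difference was -0.08 ± 0.03 (SE, edgeR adjusted p = 0.113), and its mean was lower in RE at 5 of 5 time points. Atp5a1 had a log2 difference of -0.05 ± 0.02 (edgeR adjusted p = 0.178) and likewise lay below KO at 5 of 5 time points. At time points 1 to 3 alone 0 genes were called (3.81% of all genes; 0 at an unadjusted p under 0.05, 0 by DESeq2), and at time points 5 to 6 alone 0 genes (3.89% of all genes; 1 at an unadjusted p under 0.05, 0 by DESeq2). With replicate 3 left out of every group, Cox4i1 passed as lower in RE.

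Between RE and WT, 0 of 73 genes passed over the 5 time points, where 0.356% of all genes did. There were 5 genes at an unadjusted p under 0.05 and 0 by DESeq2, and the intervals reached at most from 0.832-fold to 1.23-fold. At time points 1 to 3 there were 0 calls (0.0108% of all genes; 1 at an unadjusted p under 0.05, 0 by DESeq2) and at time points 5 to 6 also 0 (0.162% of all genes; 4 at an unadjusted p under 0.05, 0 by DESeq2). Without the 5 libraries in doubt, 2 genes passed as higher in RE, Ndufa10 and Ndufa4, where 2.43% of all genes passed.

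KO epidermis held slightly more mRNA of 3 subunits than WT epidermis. Over the 5 time points 3 of 73 genes passed the edgeR test, all higher in KO, where 14.9% of all genes passed and 6.69% passed as higher. They were Atp5a1, Ndufa10, an accessory subunit of complex I, and Cox4i1, each from another complex. A total of 11 genes had an unadjusted p under 0.05, and DESeq2 called 4. The 73 log2 differences had a median of 0.05 and 64 lay above 0, against a median of -0.01 over all genes tested. RE set against the same WT libraries had 65 of 73 differences above 0, with a median of 0.04. The 95% intervals of KO against WT reached at most from 0.836-fold to 1.25-fold.

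Atp5a1 ranged from 590 to 661 CPM in KO (median 619 CPM) and from 533 to 648 CPM in WT (median 580 CPM, n = 20 each). The ranges overlapped, and 17 of 20 KO libraries lay above the WT mean of their time point. The log2 difference was 0.09 ± 0.02 (SE, edgeR adjusted p = 0.00489), with KO above WT at 5 of 5 time points. Ndufa10 ranged from 76.9 to 97.4 CPM in KO (median 85.6 CPM) and from 75.6 to 88.8 CPM in WT (median 80.7 CPM, n = 20 each). Here 18 of 20 KO libraries lay above the WT mean of their time point, and the log2 difference was 0.09 ± 0.02 (SE, edgeR adjusted p = 0.00634). Cox4i1 ranged from 183 to 217 CPM in KO (median 196 CPM) and from 163 to 208 CPM in WT (median 185 CPM, n = 20 each). Its log2 difference was 0.09 ± 0.03 (SE, edgeR adjusted p = 0.0468), with 17 of 20 KO libraries above the WT mean of their time point.

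The next genes in order of p, in complexes II and III, missed the threshold. Sdhc had a log2 difference of 0.09 ± 0.03 (edgeR adjusted p = 0.0506), Uqcrc1 0.09 ± 0.03 (adjusted p = 0.0585) and Cyc1, the cytochrome c1 of complex III, 0.08 ± 0.03 (adjusted p = 0.0672). Atp5b, the partner of Atp5a1, had 0.05 ± 0.03 (edgeR adjusted p = 0.188). Without the 5 libraries in doubt, 11 genes passed, where 24% of all genes did, and all 11 were higher in KO: Atp5a1, Ndufa10 and Cox4i1 with Ndufa4, Ndufs1, Ndufs4, Ndufv3, Sdhc, Cyc1, Uqcrfs1 and Cox7a2. With 1 replicate left out of every group, between 1 and 3 passed.

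The same comparison split by time gave fewer calls. At time points 1 to 3 the edgeR test called 1 gene, Ndufa10 (log2 difference 0.10 ± 0.03, adjusted p = 0.0244), where 12.4% of all genes passed, and it called 0 to 1 with 1 replicate left out. At time points 5 to 6 it called 2, Atp5a1 (0.14 ± 0.04, adjusted p = 0.0182) and Uqcrc1 (0.18 ± 0.06, adjusted p = 0.0376), where 5.23% of all genes passed, and both were lost with any replicate left out. Without the 5 libraries in doubt Uqcrc1 did not pass, while Atp5a1 (0.12, adjusted p = 0.0249) and Uqcr11 (0.36, adjusted p = 0.0440) passed the edgeR test, where 9.81% of all genes did. Uqcrc1 there ranged from 198 to 228 CPM in KO (median 221 CPM) and from 148 to 215 CPM in WT (median 199 CPM, n = 8 each), and its lowest WT value came from replicate 4 of time point 5, a library in doubt. Whether the difference between genotypes itself differed between time points 5 to 6 and 1 to 3 was tested directly. For KO against WT 0 genes passed (0.248% of all genes; 5 at an unadjusted p under 0.05, 0 by DESeq2) and for RE against WT 0 (0% of all genes; 0 at an unadjusted p under 0.05, 0 by DESeq2).

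Some cell type markers were also called between KO and WT in the same fit. Of all genes 14.9% passed there, and 6.69% passed as higher. Of 12 keratinocyte markers 4 were higher in KO, with a median log2 difference of 0.14, and their sum lay between 50012 and 60149 CPM in KO and between 44624 and 58046 CPM in WT. Of 8 sebaceous gland markers 4 were lower in KO, with a median of -0.32 and sums between 973 and 1786 CPM in KO and between 962 and 1720 CPM in WT. Of 8 melanocyte markers 5 were lower in KO, with a median of -0.86 and sums between 15.7 and 45.0 CPM in KO and between 19.5 and 145 CPM in WT. Of 12 hair follicle markers 1 was higher and 2 were lower, of 10 skeletal muscle markers tested 2 were higher, and of 2 fat cell and 8 Langerhans and T cell markers 1 each was lower, while 0 of 6 fibroblast markers were called. The marker sums span all 24 libraries of a genotype, time point 4 included. The part of these marker differences in the subunit values was not tested.

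**Figure D3:**
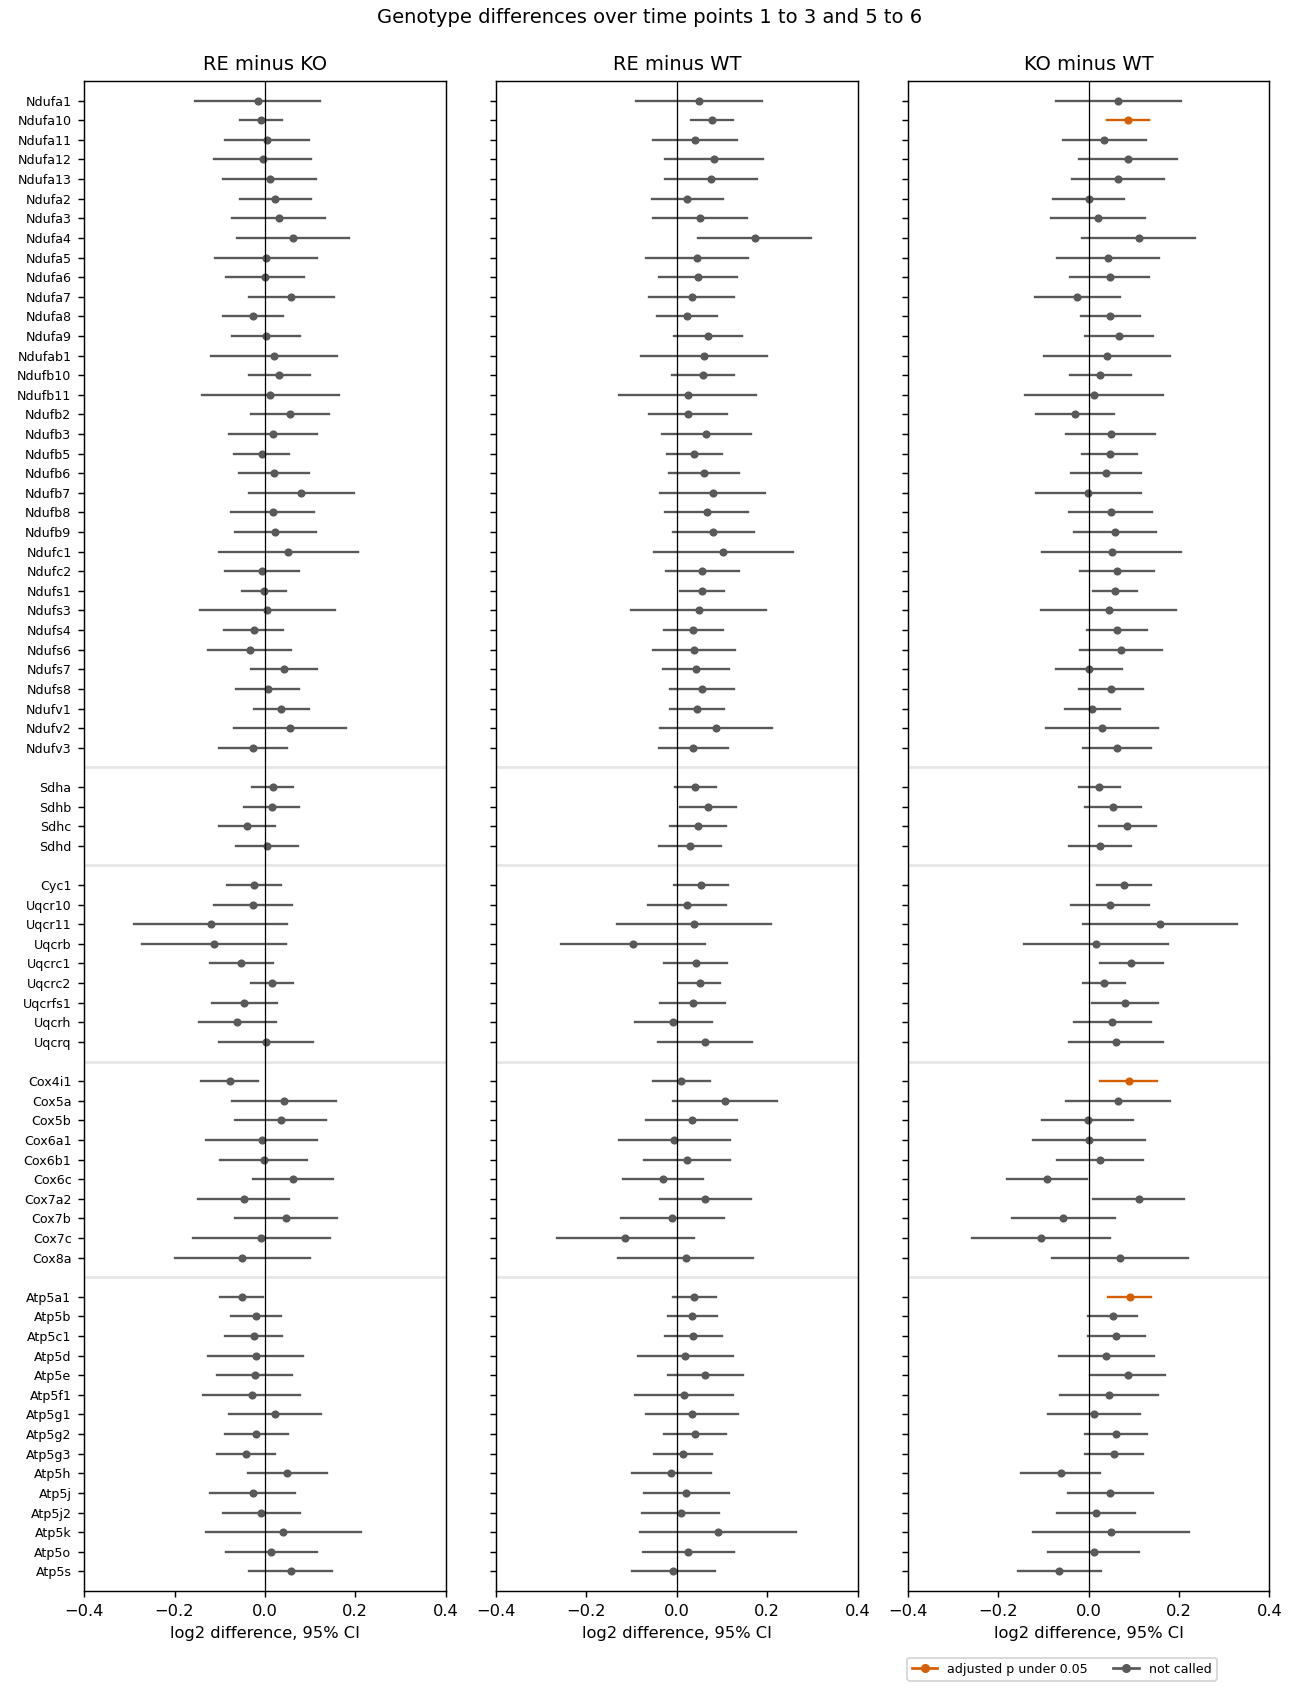
Log2 difference with its 95% interval for 72 of the 73 subunit genes over time points 1 to 3 and 5 to 6, for RE minus KO, RE minus WT and KO minus WT, with genes of an edgeR adjusted p under 0.05 in orange. Atp5a1, Ndufa10 and Cox4i1, all at 0.09 in KO minus WT, are the 3 orange genes.

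Bmal1 and its partner bind the E-box CACGTG, and the subunit genes are textbook targets of the nuclear respiratory factor NRF1, whose core motif is set in capitals in the Atp5k sequence shown here. Promoters of RefSeq (GRCm38.p6, from 250 bases before to 50 bases after the start) were matched for 61 of the 73 genes and searched on both strands. Both motifs read the same on either strand, and neither holds the other. The E-box was in 5 of them (8.20%, against 7.90% of 17491 promoters of protein-coding genes): those of Ndufa7, Ndufv1, Atp5f1, Atp5g1 and Atp5g3. The NRF1 motif was also in 5 (8.20%, against 1.32% of all): those of Ndufa11, Uqcrc1, Cox6a1, Atp5g2 and Atp5k. The ETS motif CCGGAAG was in 14 (23.0%, against 11.9%) and the YY1 motif AAGATGGC in 9 (14.8%, against 3.22%). None of the 5 genes with an E-box was among the 3 called between KO and WT, but groups this small would seldom overlap. A link between the motif and the genotype differences was not tested. Ndufv1 had a KO minus WT log2 difference of 0.01 ± 0.03 (edgeR adjusted p = 0.904) and Atp5g3 one of 0.06 ± 0.03 (adjusted p = 0.245). A match of letters is a description and does not show binding. The 250 bases before the start of Ndufv1 (chr19:4012756-4013005, minus strand), Atp5g3 (chr2:73911327-73911576, minus strand) and Atp5k (chr5:108434400-108434649, minus strand) are shown because the first pair holds the E-box and the third the NRF1 motif, in capitals.
Ndufv1: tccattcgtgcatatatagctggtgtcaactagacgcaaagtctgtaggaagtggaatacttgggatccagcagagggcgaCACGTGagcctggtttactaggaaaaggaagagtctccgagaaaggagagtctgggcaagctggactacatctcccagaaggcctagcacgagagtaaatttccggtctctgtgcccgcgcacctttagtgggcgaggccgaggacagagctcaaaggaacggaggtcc
Atp5g3: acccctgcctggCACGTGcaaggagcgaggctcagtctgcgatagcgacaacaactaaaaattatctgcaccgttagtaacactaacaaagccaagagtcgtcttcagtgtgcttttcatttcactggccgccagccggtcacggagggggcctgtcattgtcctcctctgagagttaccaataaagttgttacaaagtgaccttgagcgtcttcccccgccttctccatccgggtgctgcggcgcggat
Atp5k: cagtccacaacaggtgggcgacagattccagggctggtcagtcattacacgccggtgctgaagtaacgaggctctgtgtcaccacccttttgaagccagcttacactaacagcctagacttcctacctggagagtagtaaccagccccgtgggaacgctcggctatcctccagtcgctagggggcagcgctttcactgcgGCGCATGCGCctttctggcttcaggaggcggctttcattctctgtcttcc

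Between time points 5 to 6 and time points 1 to 3, a minority of the subunit genes shifted, most of them downward. The edgeR test called 20 of 73 genes in RE, 20 in KO and 24 in WT, where 10.8%, 6.67% and 27.9% of all genes passed. Lower at time points 5 to 6 were 19 in RE, 20 in KO and 21 in WT, where 5.88%, 4.14% and 13.1% of all genes were lower. A total of 17 genes were lower in all 3 genotypes, 10 were called in 1 or 2 and 46 in none. In the 17 the median log2 difference was -0.52 in RE, -0.56 in KO and -0.54 in WT, and in the 46 it was 0.03, -0.01 and 0.02 in the same order of genotypes. Time of day and library set cannot be told apart in this contrast. Markers of other cells moved in it too: 0 of 8 sebaceous gland markers were lower in RE, 4 in KO and 6 in WT, and of 10 skeletal muscle markers 7 were lower in RE, 0 in KO and 0 in WT, where 1 was higher. Of 8 melanocyte markers 2 were lower in RE, 1 in KO and 5 in WT, and of 12 hair follicle markers 1 in RE, 0 in KO and 3 in WT. Of 2 fat cell markers 0 were lower in RE, 1 in KO and 1 in WT, and of 4 endothelial and blood markers 0, 0 and 1. Of 12 keratinocyte markers 1 was higher in RE, 0 changed in KO, and 1 was higher and 1 lower in WT, while 0 of 6 fibroblast and 0 of 8 Langerhans and T cell markers were called in any genotype. Their part in the subunit values was not tested.

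The largest shift was that of Cox7b, a small subunit of complex IV. At time points 5 to 6 it ranged from 2.14 to 2.87 CPM in RE, from 1.95 to 3.05 CPM in KO and from 2.19 to 3.35 CPM in WT (n = 8 each). At time points 1 to 3 it ranged from 7.0 to 10.7 CPM in RE, from 6.31 to 10.7 CPM in KO and from 6.41 to 10.5 CPM in WT (n = 12 each). No library of the later time points reached the lowest of the earlier ones, and the log2 differences were -1.71 in RE, -1.76 in KO and -1.75 in WT. Atp5o, the stalk subunit of ATP synthase that confers oligomycin sensitivity, had -1.60 in RE, -1.56 in KO and -1.57 in WT. Atp5k, a small membrane subunit of ATP synthase, had -1.39, -1.63 and -1.37, Ndufb11, an accessory subunit of complex I, -1.22, -1.25 and -1.09, and Atp5h, another stalk subunit of ATP synthase, -1.01, -0.96 and -0.93 in RE, KO and WT. Cox8a, Atp5j2, Uqcrh and Cox5a had log2 differences between -0.75 and -0.52 in each genotype. Over all 73 genes 6 did not overlap between the library sets in CPM: Uqcrh, Cox7b, Atp5h, Atp5j2, Atp5k and Atp5o. How many of all genes tested did not overlap in this way was not counted. The few rises were small. In WT Ndufs7 rose by 0.21 (edgeR adjusted p = 0.00226), Ndufab1 by 0.29 (adjusted p = 0.0238) and Uqcr10 by 0.16 (adjusted p = 0.0485), and in RE Ndufa10 rose by 0.10 (adjusted p = 0.0377).

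**Figure D4:**
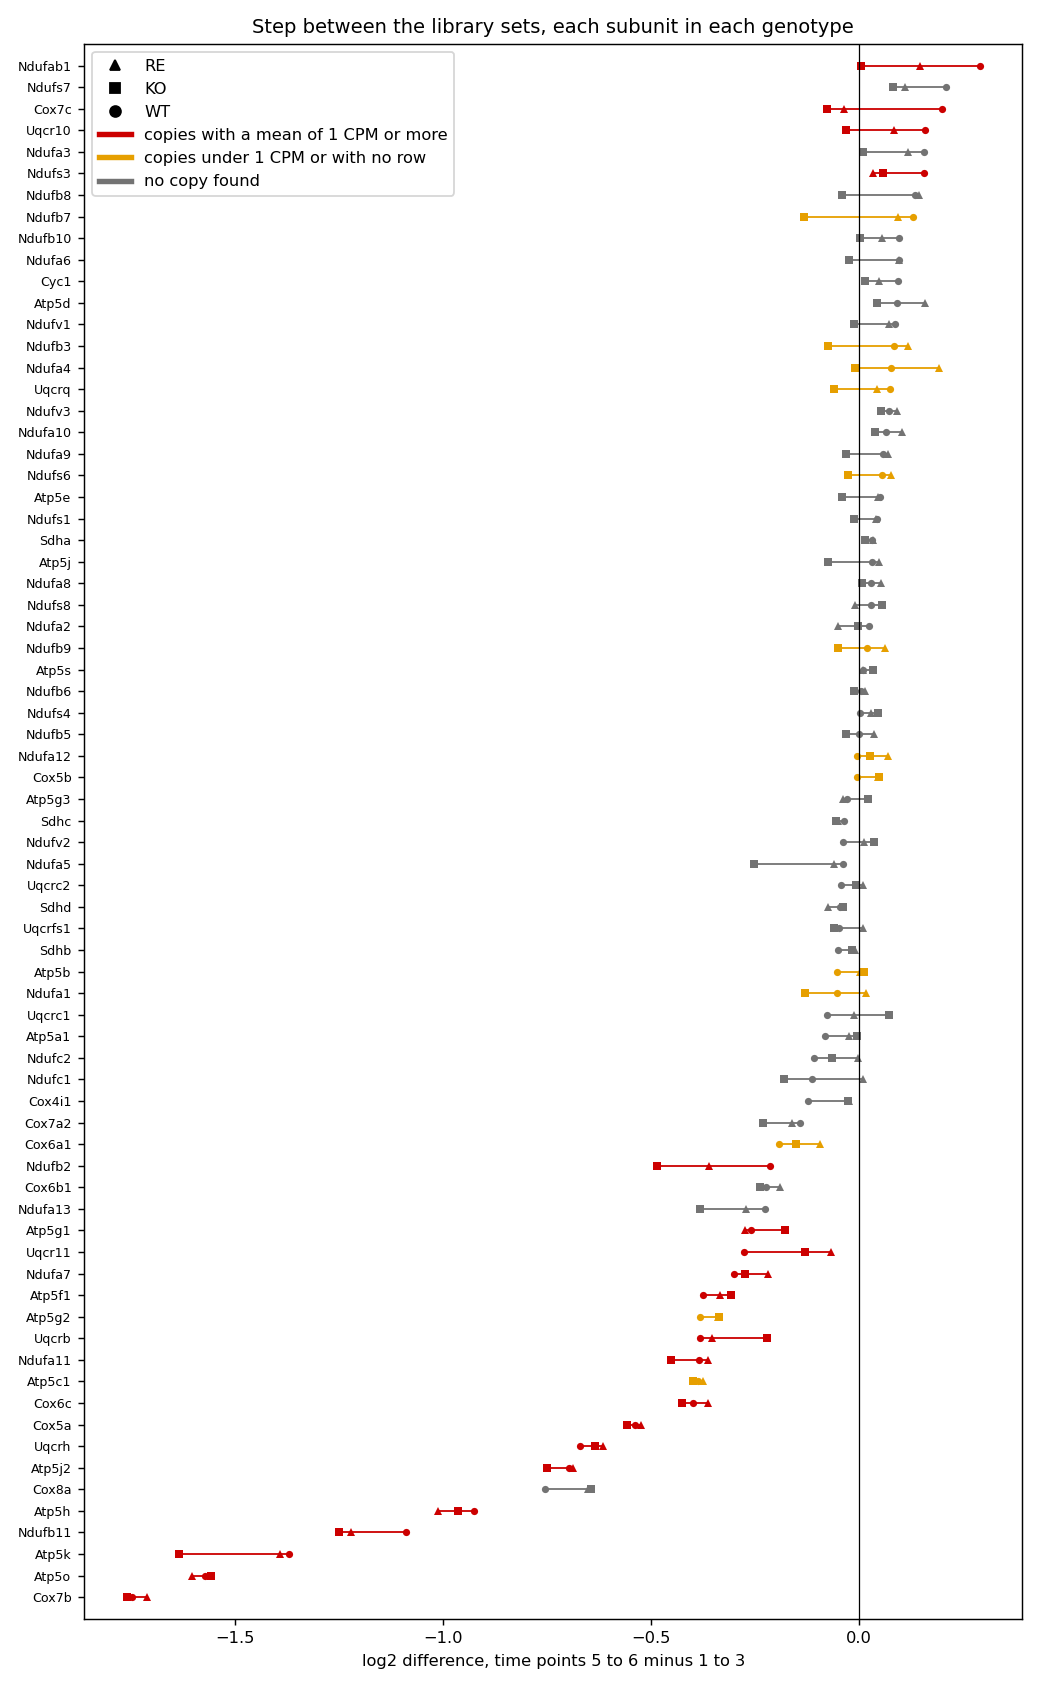
Log2 difference between time points 5 to 6 and 1 to 3 for 72 of the 73 subunit genes in RE (triangle), KO (square) and WT (circle), coloured by whether near-identical copies of the gene were found and whether they held reads in the count tables. The marks of a gene lie close together, from Cox7b at -1.71, -1.76 and -1.75 to Ndufab1 at 0.15, 0.00 and 0.29 in RE, KO and WT, and 13 of the 17 genes lower in all 3 genotypes are red, with copies of 1 CPM or more.

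WT time point 4 lies in the first set while RE and KO time point 4 lie in the second, so that genotype and library set cannot be told apart at time point 4. The median log2 difference of the 17 genes there was -0.50 for RE against WT and -0.53 for KO against WT, while WT time point 4 differed from WT time points 1 to 3 by a median of -0.04. For 12 of the 17 no RE or KO mouse at time point 4 reached the lowest WT mouse. The 17 had been picked by their difference between time points of the 2 sets, and the same count over all genes was not made. Atp5o had 5.61, 6.35, 5.80 and 5.81 CPM in RE, 5.53, 6.12, 6.34 and 4.98 CPM in KO and 15.4, 13.9, 19.3 and 17.7 CPM in WT. The RE and KO mice were alike, and all stood below every WT mouse. Cox7b had 2.52, 2.71, 2.63 and 2.29 CPM in RE, 2.44, 2.38, 2.95 and 2.5 CPM in KO and 8.35, 7.49, 8.80 and 9.29 CPM in WT, with the same split. Atp5c1, the gamma subunit that turns inside the ATP synthase head, had 97.7, 101, 88.9 and 91.5 CPM in RE, 86.0, 88.7, 95.2 and 92.3 CPM in KO and 109, 114, 121 and 130 CPM in WT. Cox8a overlapped, with 15.3, 23.7, 16.7 and 16.0 CPM in RE, 22.3, 16.3, 17.1 and 18.5 CPM in KO and 23.6, 20.7, 30.3 and 32.2 CPM in WT.

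Many subunit genes have processed pseudogenes, copies of the spliced mRNA that were reinserted elsewhere in the genome. Against the transcripts of all other genes of GENCODE M21, 33 of the 73 genes had a copy of at least 90% identity over at least 100 coding bases, and for 20 the copies held a mean of at least 1 CPM. The other 13 had copies under 1 CPM or with no row in the count tables, and for 4 of them no copy had a row, so that reads on them were not counted. Of the 17 genes lower in all 3 genotypes, 13 were among these 20, 2 (Atp5c1 and Atp5g2) had copies under 1 CPM, each with 1 further copy that had no row, and 2 (Cox8a and Ndufa13) had no copy. Of the 40 genes with no copy, 2 were lower in all 3 genotypes, and their median difference between time points 5 to 6 and 1 to 3 was 0.01 in RE, -0.01 in KO and 0.00 in WT. In the 20 genes with read copies it was -0.36 in RE, -0.44 in KO and -0.38 in WT. Transcript length had a Spearman correlation of 0.11 with the WT difference across the 73 genes, which are not independent.

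Stretches of 90 coding bases of 4 genes and of their copies are shown because they tell how few bases set a gene apart from its copy. They are coding strands from GENCODE M21 (GRCm38), each spans a junction of exons of the gene, and capitals mark the bases that differ. Positions count from 1 at the first base of the coding sequence of the gene, and each change gives the gene's base first. Atp5o lies on chromosome 16 and its copy Gm5436 on chromosome 12 (chr12:84258331-84258973, minus strand), with the changes A64G, T96A and C105T over bases 43 to 132.
Atp5o: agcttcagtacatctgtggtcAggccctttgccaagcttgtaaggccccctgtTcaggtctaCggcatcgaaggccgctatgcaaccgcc
Gm5436: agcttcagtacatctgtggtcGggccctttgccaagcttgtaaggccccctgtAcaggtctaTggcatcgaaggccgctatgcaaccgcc
Cox7b lies on chromosome X and its copy Gm19503 on chromosome 1 (chr1:151520447-151520687, minus strand), with G133A, A162C, C171T and T185C over bases 121 to 210.
Cox7b: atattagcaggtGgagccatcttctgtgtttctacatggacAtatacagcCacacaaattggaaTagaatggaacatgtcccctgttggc
Gm19503: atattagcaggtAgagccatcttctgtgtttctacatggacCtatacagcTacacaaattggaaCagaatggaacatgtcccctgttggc
Ndufs3 lies on chromosome 2 and its copy Gm12251 on chromosome 11 (chr11:58392769-58393560, minus strand), with G27T and C81T over bases 20 to 109.
Ndufs3: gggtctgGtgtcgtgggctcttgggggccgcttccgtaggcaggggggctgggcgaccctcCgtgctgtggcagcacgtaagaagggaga
Gm12251: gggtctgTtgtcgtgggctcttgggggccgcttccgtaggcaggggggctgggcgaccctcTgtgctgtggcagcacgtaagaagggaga
Ndufb4, left out by its mean of 0.454 CPM, lies on chromosome 16, and its copy Ndufb4c on chromosome 15 (chr15:73809507-73809896, minus strand) is identical over all 387 coding bases, shown for bases 136 to 225.
Ndufb4 and Ndufb4c: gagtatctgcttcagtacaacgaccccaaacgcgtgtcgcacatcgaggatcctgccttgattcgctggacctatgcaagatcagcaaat

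For several subunits most reads were counted on the copy. Of the reads on gene and copies together, the gene held 18.9% for Atp5o, 15.0% for Cox7b, 16.5% for Ndufb11, 13.5% for Ndufs3 and 3.12% for Uqcrb, and the left-out Ndufb4 and Ndufs5 held 1.38% and 0.699%. The counts of these genes are therefore uncertain as measures of their mRNA. Only copies with a row in the count tables enter these shares and the sums below. They were 1 of 2 copies for Atp5o, 3 of 4 for Cox7b and 3 of 4 for Uqcrb. The 20 genes with read copies, and their copies, were named for these values and so after they were seen.

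Between the sets, Atp5o, Cox7b and Ndufb11 went one way and their copies the other. Atp5o averaged 5.80 ± 0.60 CPM in the second set and 17.2 ± 1.83 CPM in the first, while its copies averaged 61.8 ± 5.79 CPM and 44.2 ± 4.19 CPM in the same order (SD, n = 32 and 40). The sum of both was 67.6 ± 6.09 CPM in the second set and 61.5 ± 5.16 CPM in the first. Cox7b averaged 2.61 ± 0.30 CPM in the second set and 8.76 ± 1.10 CPM in the first, and its copies 41.5 ± 4.80 CPM and 28.4 ± 2.1 CPM. Ndufb11 averaged 3.60 ± 0.61 CPM in the second set and 8.21 ± 1.14 CPM in the first, and its copies 34.3 ± 2.83 CPM and 28.7 ± 2.63 CPM. Ndufs3 showed no such split, with 6.42 ± 0.71 CPM in the second set and 6.19 ± 1.22 CPM in the first, and copies at 41.4 ± 4.30 CPM and 39.4 ± 2.22 CPM.

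With each gene summed with its copies, the edgeR test called 12 genes in RE, 15 in KO and 17 in WT between time points 5 to 6 and 1 to 3. Before the summing, 10.8%, 6.67% and 27.9% of all genes passed this test in RE, KO and WT. Cox7b then had log2 differences of 0.30 in RE (edgeR adjusted p = 3.18e-04), 0.25 in KO (adjusted p = 0.00467) and 0.21 in WT (adjusted p = 0.0103), and Atp5o 0.15, 0.12 and 0.11, so that both changed sign. Atp5h, whose gene held 80.0% of the reads on gene and copies, averaged 18.7 ± 1.64 CPM as a sum in the second set and 29.5 ± 2.70 CPM in the first. That share and sum take in 4 of the 6 copies of Atp5h, as the others had no row in the count tables. Cox8a had no copy to add, and 2 of the 3 copies of Atp5c1 held 0.0194 CPM in all, while the third had no row in the count tables. What sets the libraries apart was not tested.

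**Figure D5:**
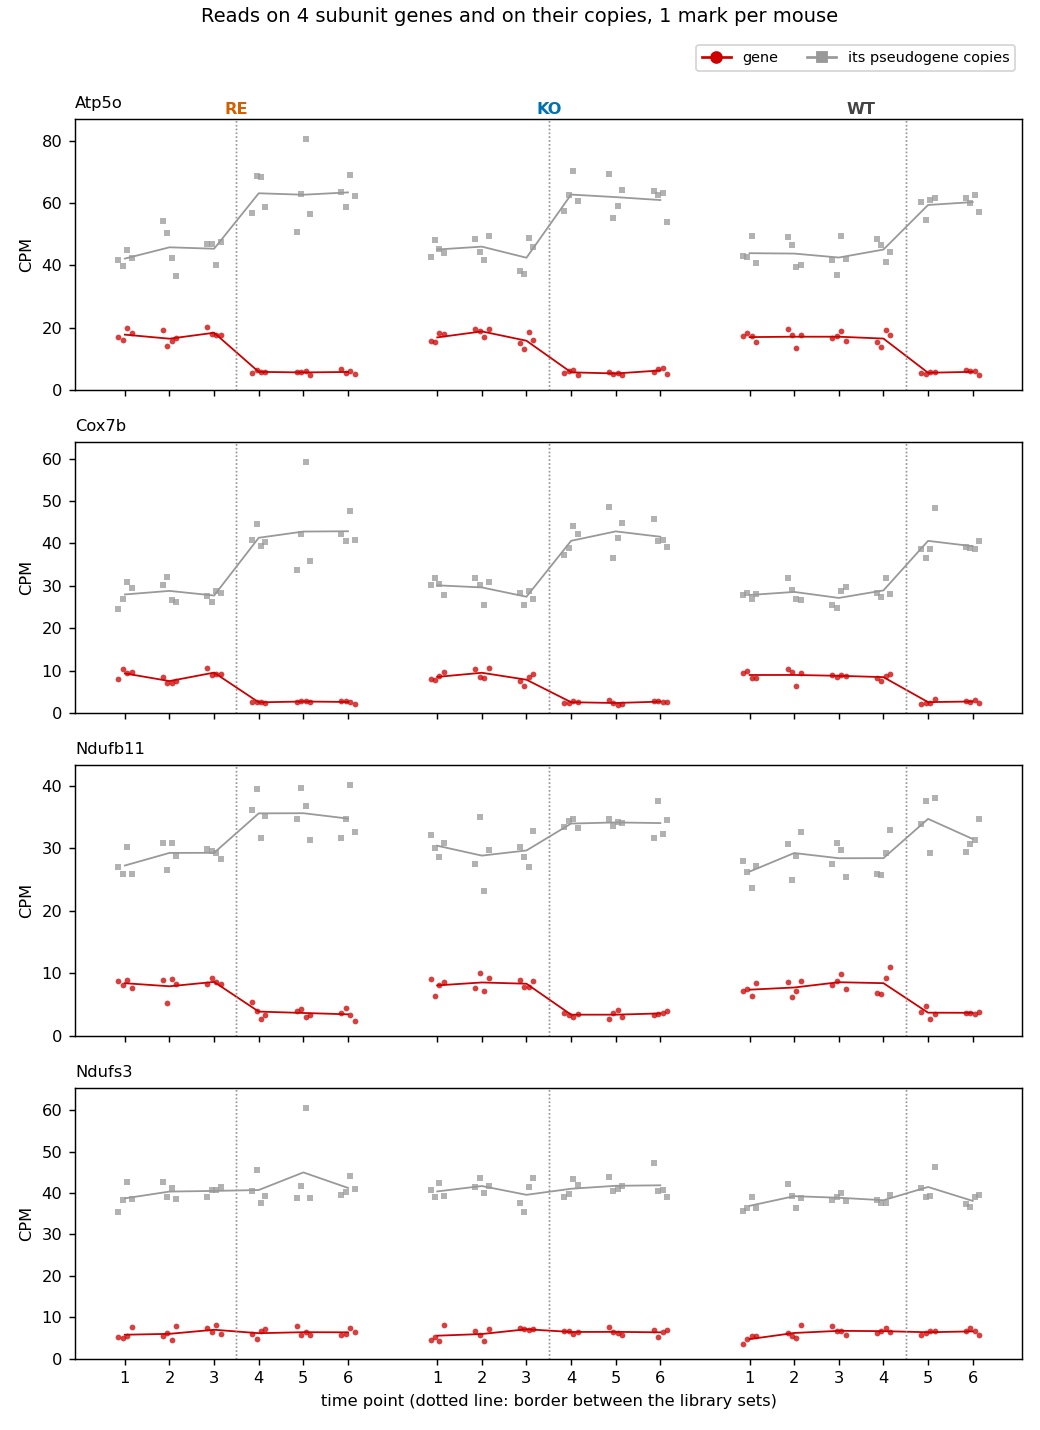
CPM on 4 subunit genes (red circles) and on their pseudogene copies (grey squares) at each time point in RE, KO and WT, 1 mark per mouse with lines through group means. Where a genotype passes the dotted line into the second library set, Atp5o, Cox7b and Ndufb11 fall and their copies rise, and Ndufs3 stays near 6 CPM.

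Within a library set the subunit genes moved little over the day. Among the first-set time points (1 to 3 in RE and KO, 1 to 4 in WT) the median log2 range of group means over the 73 genes was 0.10 in RE, 0.13 in KO and 0.12 in WT. Over the 13901 genes with a mean of at least 1 CPM it was 0.18, 0.20 and 0.30. Those genes were not matched to the subunits in level, and counting noise widens such a range at low counts. The largest first-set ranges of subunits in WT were 0.51 for Ndufs3 and 0.50 for Ndufab1. The edgeR F-test for a change among time points within a set called 0 genes in RE (3.11% of all genes; 4 at an unadjusted p under 0.05), 0 in KO (1.52% of all genes; 4 at an unadjusted p under 0.05) and 2 in WT, Sdha and Atp5s (24.7% of all genes, and 28.5% of those with at least 1 CPM). DESeq2 was not run for tests on several coefficients.

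Sdha, which oxidises succinate, was low at the first time point of WT. It had 117, 125, 139 and 123 CPM at time point 1 and 152, 145, 150 and 149 CPM at time point 4, with no overlap. Group means in WT were 126, 141, 144 and 149 CPM at time points 1 to 4 and 141 and 138 CPM at time points 5 and 6 (edgeR adjusted p = 0.00270). RE had 130, 146 and 146 CPM at time points 1 to 3 (edgeR adjusted p = 0.0888), and KO had 134, 141 and 143 CPM (adjusted p = 0.539). RE and KO did not pass, and whether they differ from WT in this was not tested. Atp5s, also called factor B of the ATP synthase, averaged 10.4, 12.1, 10.9 and 10.3 CPM at WT time points 1 to 4 and 9.91 and 12.6 CPM at time points 5 and 6 (edgeR adjusted p = 0.0187). With 1 replicate left out of every group, between 0 and 2 genes passed in WT.

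A cosine with a period of 6 time points fitted 17 genes in RE (12.7% of all genes), 19 in KO (7.26% of all genes) and 21 in WT (33.3% of all genes) by the edgeR F-test. Of these, 16 in RE, 17 in KO and 17 in WT were among the 17 genes lower in all 3 genotypes at time points 5 to 6. With the library set as a term, 0 genes passed in RE (2.07% of all genes; 2 at an unadjusted p under 0.05), 0 in KO (2.05% of all genes; 3 at an unadjusted p under 0.05) and 1 in WT (25% of all genes), Sdha, with a fitted log2 range of 0.24 and a peak at time point 3.34 (edgeR adjusted p = 9.37e-04). Sdha was also the gene of smallest p with that term in RE (range 0.16, edgeR adjusted p = 0.0957) and KO (range 0.14, adjusted p = 0.186). In RE and KO the border between sets falls as such a cosine would, so a call lost with the set term does not tell a step from a rhythm.

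Genes that work around the complexes gave calls in both directions. Of 44 assembly factors tested, which help build the complexes, 5 were higher in RE than in KO, where 9.63% of all genes were called in either direction, including Uqcc1 (log2 difference 0.13 ± 0.03, edgeR adjusted p = 5.64e-04) and Uqcc2 (0.16 ± 0.04, adjusted p = 0.00150), both for complex III, and Ttc19 (0.17 ± 0.04, adjusted p = 0.00193), also tied to complex III. Against WT, Ttc19 fell in KO by 0.18 and Uqcc2 by 0.10, and Taco1, a translational activator of mt-Co1, was higher by 0.17 (3 of 44 called, 1 higher and 2 lower, against 14.9% of all genes called between KO and WT). Of 17 genes of the tricarboxylic acid cycle, KO was lower in Dlat, a subunit of pyruvate dehydrogenase (-0.11 ± 0.03, edgeR adjusted p = 0.00120), and higher in Mdh2, malate dehydrogenase (0.13 ± 0.03, adjusted p = 0.00472), than WT. Dlat was higher in RE than in KO (0.10 ± 0.03, edgeR adjusted p = 0.00752).

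Of 20 regulators of mitochondrial biogenesis 2 fell in KO against WT, the mitochondrial deacetylase Sirt3 (-0.19 ± 0.04, edgeR adjusted p = 4.06e-04) and the nuclear receptor Esrrg (-1.43 ± 0.38, adjusted p = 0.00556), which has a mean of only 0.147 CPM. Both were higher in RE than in KO, Sirt3 by 0.15 ± 0.04 (edgeR adjusted p = 0.0110) and Esrrg by 1.37 ± 0.38 (adjusted p = 0.0114). Of 18 electron carriers and exchange proteins, Slc25a4, an exchanger of ADP and ATP, was higher in KO than in WT (0.20 ± 0.07, edgeR adjusted p = 0.0321) and Coq6, an enzyme of ubiquinone synthesis, was lower (-0.12 ± 0.04, adjusted p = 0.0485). Of 78 mitochondrial ribosomal proteins 6 were higher and 1 was lower in KO than in WT, and of 77 cytosolic ones 12 were higher and 3 were lower, again beside 14.9% of all genes. Within a set, WT changed in 11 of 44 assembly factors, 8 of 20 regulators, 12 of 78 mitochondrial and 15 of 77 cytosolic ribosomal proteins, beside the 2 of 73 subunits and 24.7% of all genes. Between time points 5 to 6 and 1 to 3 the cytosolic ribosomal proteins fell in 39 of 77 genes in RE, 29 in KO and 39 in WT, with 0 rises. Of all genes 5.88%, 4.14% and 13.1% were lower in RE, KO and WT. Time of day and library set cannot be told apart in this contrast, and copies of the ribosomal protein genes were not searched.

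The mitochondrially encoded partners could be followed only in part. Of 13 such subunits 7 passed the filter, and mt-Nd3, mt-Nd4l, mt-Co2, mt-Co3 and mt-Atp6 were at 0 in all 72 libraries while mt-Atp8 had a mean of 0.0463 CPM. Pseudogenes that carry mitochondrial sequence held many reads, with means of 5038 CPM for Gm28661 and 7635 CPM for Gm10925, both named after their values were seen. No mitochondrially encoded subunit was called between RE and KO, RE and WT or KO and WT over the 5 time points. mt-Cytb, of complex III, ranged from 1408 to 11164 CPM in RE (median 2225 CPM), from 1663 to 4172 CPM in KO (median 2150 CPM) and from 1628 to 14319 CPM in WT (median 2349 CPM, n = 24 each). The highest values in RE and WT came from the 2 libraries with little Krt14, RE time point 5 replicate 3 and WT time point 5 replicate 4, and the next highest was 5123 CPM in RE and 3654 CPM in WT.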

How the data were processed

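RNA-seq had been done on 72 epidermal libraries. Each library has a deposited table of raw counts per gene, which the authors had not normalized. Per the submitters' processing notes, Trimmomatic, HTSeq and TopHat2 2.1.1 were used, with the builds mm10 and GRCm38. Whether reads were counted by strand is not given, so overlapping genes are uncertain. Groups and replicates came from the sample titles. Nothing says that same-numbered mice were paired, and p-values measure the spread between these samples. The 5 HTSeq summary lines were left out of library sizes.

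Counts were tested with the quasi-likelihood test of edgeR 4.0.16 (limma 3.58.1, R 4.3.3) after TMM scaling. filterByExpr kept 18515 genes, among them all 73 subunit genes. The model had 18 group means, or a mean, cosine and sine per genotype for rhythms. Benjamini-Hochberg adjustment ran over all genes tested, with a threshold of 0.05. CPM use TMM-scaled library sizes, while the limit of 1 CPM used unscaled ones. DESeq2 1.42.0 was an alternative, and others changed the scaling, the filter, the libraries, the replicate block and the library set term. Copies were found with BLAST 2.17.0. On simulated data with 18242 genes the KO against WT test recovered 28 of 50 genes changed 1.2-fold and 47 of 50 changed 1.5-fold. The WT rhythm test recovered 6 of 50 and 31 of 50. Apart from the planted changes each simulated gene had a flat mean, without library sets or libraries in doubt. Changes were planted only in well-counted genes, so these rates do not give the recovery in the real libraries.

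Named genes were the core subunits, complex II, tissue-restricted forms with their partners, up to 4 genes of smallest p per complex and result, the 5 largest and 5 smallest differences between time points 5 to 6 and 1 to 3, and up to 4 genes of smallest p in other lists. Genes with an E-box, copies and their partners were chosen after their values were seen. Members and lists were chosen with earlier results of these data known. Of the 73 genes, 1 is counted in sums and totals but its own values are not reported here.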

Additional observations from a re-analysis of the deposited data

Results flagged for a closer look

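Within groups of 4 mice, 288 sets of values (subunit sums and the genes the results turn on) were searched for 1 mouse far from the other 3, and 15 were found. Chance alone gives about 1 in 20 such groups, which is close to the share found here. The sets of values are not independent, since the sums hold the single genes.

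Among the sums, all subunits together reached 4943 CPM in KO time point 4 replicate 3, against 4746 to 4757 CPM in the other mice. Complex I reached 1550 CPM in RE time point 6 replicate 3, against 1366 to 1393 CPM. Complex II reached 350 CPM in RE time point 4 replicate 2, against 304 to 306 CPM, and 330 CPM in KO time point 2 replicate 2, against 303 to 307 CPM. Complex III was low at 563 CPM in WT time point 1 replicate 1, against 585 to 590 CPM, and at 545 CPM in WT time point 6 replicate 1, against 574 to 579 CPM. Complex V reached 2214 CPM in RE time point 1 replicate 3, against 1993 to 2025 CPM.

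Among single genes, Ndufa10 was low at 75.5 CPM in RE time point 1 replicate 1, against 86.2 to 87.7 CPM. Uqcrc1 reached 216 CPM in RE time point 1 replicate 3, against 194 to 196 CPM, and was low at 148 CPM in WT time point 5 replicate 4, a library in doubt, against 203 to 215 CPM. Cox4i1 was low at 192 CPM in KO time point 4 replicate 3, against 196.7 to 197.2 CPM. Cox7b reached 10.7 CPM in RE time point 3 replicate 1, against 9.08 to 9.33 CPM, and Atp5o 20.2 CPM in the same mouse, against 17.7 to 17.9 CPM. Cox8a reached 23.7 CPM in RE time point 4 replicate 2, against 15.3 to 16.7 CPM. Atp5a1 reached 628 CPM in WT time point 3 replicate 2, a library in doubt, against 579 to 585 CPM.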

How the results depend on the processing

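Of 232 counts of subunit genes called under alternative settings, 197 stayed within 1.5 times the reported count and 35 moved. For KO against WT over time points 1 to 3 and 5 to 6 (3 called) the count was 5 with genes summed with their copies, 5 with the 2 genotypes compared alone, 11 without the 5 libraries in doubt, and 1 to 3 with 1 replicate left out. At time points 1 to 3 (1 called) it was 2, 2 and 4 under the same 3 settings, and 0 to 1 with 1 replicate left out. Without the 5 libraries in doubt, 24% of all genes passed over the 5 time points and 19.8% at time points 1 to 3. The main fit had 14.9% and 12.4% in the same order. At time points 5 to 6 (2 called, beside 5.23% of all genes) it was 0 with no filter and 0 with any replicate left out. RE against KO (0 called, beside 9.63% of all genes) gave 0 to 1 with 1 replicate left out. RE against WT (0 called, beside 0.356% of all genes) gave 2 without the 5 libraries in doubt, where 2.43% of all genes passed. At time points 5 to 6 RE against WT gave 0 to 1 with 1 replicate left out.

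Change within a library set gave 1 in RE (0 called, beside 3.11% of all genes) with RLE size factors and 1 with a mean CPM of at least 1. With 1 replicate left out it gave 0 to 1 in RE and 0 to 2 in WT (2 called, beside 24.7% of all genes). The rhythm counts of 17 in RE, 19 in KO and 21 in WT became 0, 0 and 1 with the library set as a term, 1, 0 and 1 when the 5 libraries in doubt were left out as well, 11, 14 and 13 with genes summed with their copies, and 14 to 18, 16 to 18 and 17 to 18 with 1 replicate left out. Of all genes 12.7%, 7.26% and 33.3% passed the main rhythm test in RE, KO and WT. With the library set as a term the shares were 2.07%, 2.05% and 25%. Between time points 5 to 6 and 1 to 3, leaving out 1 replicate gave 15 to 19 calls in RE, 16 to 18 in KO and 20 to 22 in WT. Summing gave 12 in RE, 15 in KO and 17 in WT. In the main fit 10.8%, 6.67% and 27.9% of all genes passed that contrast in RE, KO and WT.

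Same-numbered samples deviated together, with a correlation over 0.1, in 10 of 24 pairs for RE and KO, 16 of 24 for RE and WT and 10 of 24 for KO and WT. The median correlation was 0.03, 0.20 and 0.09 in the same order, against -0.03, -0.07 and -0.02 for other-numbered samples. The labels name no pairing, so the main model did not pair the mice, and a shared factor behind the numbers was not tested. With the replicate block the KO against WT count was 2 over the 5 time points and 2 at time points 1 to 3, and the RE count within a set was 1, and each other count changed by at most 1.

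Of 1460 values of single genes, 1182 kept their direction and their side of the threshold, and 265 kept their direction but no longer passed, among them 56 of 57 with the library set as a term and 56 of 57 when the 5 libraries in doubt were left out as well. The other 13 turned their direction, all when summed with copies. These log2 differences were 0.15 in RE, 0.12 in KO and 0.11 in WT for Atp5o, 0.30, 0.25 and 0.21 for Cox7b, 0.13, 0.051 and 0.076 for Cox6c, 0.071 in RE and 0.032 in WT for Ndufb11, and 0.18 in RE and 0.18 in WT for Uqcrb. The sum adds the reads of the copies, so it no longer tells gene from copy. For other counts that moved, the cause was not tested. At this depth the subunit genes nearest to 1 CPM rest on the fewest reads.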
